A study of Mus musculus with 6 samples.

Results

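Oligodendrocytes wrap axons in myelin, and the genes described here are 34 that mark these cells and their precursors in mouse brain. They were named as a list of gene symbols, and a member was kept when its mean over the 6 mice was at least 10 normalized counts. All 34 passed that filter, out of 16127 genes that did so and 37620 listed. They fall into 12 genes of compact myelin and the myelin membrane, 7 of lipid and iron supply and metabolism, 8 of signalling, stress and cytoskeletal regulation, 4 lineage transcription factors and 3 genes of oligodendrocyte precursors.

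RNA was sequenced from the pre-limbic cortex (PLc), a medial field of the prefrontal cortex, of C57Bl/6 mice aged 9 weeks. Ketamine, an antagonist of the NMDA type of glutamate receptor, was given intraperitoneally at 30 mg/kg once a day for 5 days to mice 3, 5 and 9, and mice 1, 6 and 10 received saline on the same schedule. Brains were taken 2 days after the last injection, and the labels name no transgene or deletion. Each library is taken to be 1 mouse from the number in its label, and the p-values below measure the spread between these libraries.

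Precursor cells persist in the adult cortex, divide slowly and can mature into oligodendrocytes. As they mature they switch on a large set of genes together, under transcription factors such as Sox10, Olig1 and Olig2, and make membrane rich in galactolipids that is compacted into myelin by proteins such as Mbp. Within the cortex, myelin is sparse in the upper layers and denser in the deep layers, and the white matter beneath holds far more of it.

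The transcription factor Sox10, itself one of the 34 genes, belongs to the SOX family, whose members recognise a short core sequence. The first windows below are the 250 bases before the start of 3 myelin genes whose counts moved together between mice, as described further on, and the window of Pdgfra, a precursor gene with another pattern, is set beside them. They come from RefSeq on the mouse assembly GRCm38.p6 and are written from 5′ to 3′ on the strand of the gene. Capitals mark matches to ACAANG on either strand, where N is any base.
Mobp, chr9:120149492-120149741, plus strand: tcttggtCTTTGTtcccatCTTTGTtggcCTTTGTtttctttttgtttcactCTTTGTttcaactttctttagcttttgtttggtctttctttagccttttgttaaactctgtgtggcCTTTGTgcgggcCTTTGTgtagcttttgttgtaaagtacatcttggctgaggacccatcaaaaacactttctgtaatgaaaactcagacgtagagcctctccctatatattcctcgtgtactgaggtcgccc
Mog, chr17:37023399-37023648, minus strand: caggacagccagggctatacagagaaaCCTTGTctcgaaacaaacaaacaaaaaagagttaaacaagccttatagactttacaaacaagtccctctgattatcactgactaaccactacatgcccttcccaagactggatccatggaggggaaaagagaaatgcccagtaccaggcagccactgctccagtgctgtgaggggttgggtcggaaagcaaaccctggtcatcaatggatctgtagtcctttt
Opalin, chr19:41077114-41077363, minus strand: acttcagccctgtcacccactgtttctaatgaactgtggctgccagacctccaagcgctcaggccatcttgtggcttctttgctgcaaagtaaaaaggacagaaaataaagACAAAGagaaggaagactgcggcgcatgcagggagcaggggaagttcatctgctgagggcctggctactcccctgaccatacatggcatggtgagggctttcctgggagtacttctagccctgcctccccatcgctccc
Pdgfra, chr5:75152001-75152250, plus strand: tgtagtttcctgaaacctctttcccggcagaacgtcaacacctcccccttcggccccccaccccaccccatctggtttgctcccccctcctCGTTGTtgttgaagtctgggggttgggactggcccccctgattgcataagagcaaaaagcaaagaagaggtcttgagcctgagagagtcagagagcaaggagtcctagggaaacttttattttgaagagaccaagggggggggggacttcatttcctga
The Mobp window held 6 matches and the other windows 1 each. These windows are examples, and no other member with a window had as many matches as Mobp. Mal and Cldn11, which are also genes of compact myelin and followed the same order of mice, had 0. RefSeq gave a promoter window for 23 of the 34 genes, and 15 of these, or 65.2%, held ACAANG in the 250 bases before a start, against 39.9% of the 27025 genes with a window. The E-box CAGNTG, the kind of sequence that Olig1 and Olig2 recognise, was searched in the same way. It also stood in 15 of the 23, against 48.2% of genes. The matches of each motif were counted on both strands and without regard to the other, and a gene with several starts had several windows. Among genes with a single window, ACAANG was found in 10 of 18 members and in 37.1% of all genes. The E-box was found in 10 of the same 18 and in 44.6% of all genes. A match describes the letters of a window and does not show binding.

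The libraries held between 26273436 and 32643726 reads. The deposited values are counts that carry a scaling factor per library, called normalized counts here, and 100% of them could be turned back into whole reads, within 0.006 normalized counts plus 1e-07 of the value. The smallest value among the 34 genes was 77 reads, for Nkx6-2 in saline mouse 6, with an exact 95% Poisson interval of 60.8 to 96.2 that covers counting error only. Regional markers differed between the libraries. Ppp1r1b, a signalling protein of striatal projection neurons, had 2133, 1769 and 1996 normalized counts with saline (mice 1, 6 and 10) and 12441, 5942 and 1851 with ketamine (mice 3, 5 and 9). Cdhr1, which marks olfactory bulb output neurons, reached at most 120 in a saline mouse and lay between 817 and 4006 in the ketamine mice. Slc6a3, the dopamine transporter of midbrain neurons and a gene chosen after its values were seen, stood at 4.79, 2.90 and 1821 in the saline mice and at most at 102 in a ketamine mouse. Saline mouse 10 thus stood apart in midbrain genes, ketamine mice 3 and 5 in striatal markers and all 3 ketamine mice in olfactory bulb markers, mouse 9 the most. The comparison is also given without saline mouse 10 and, by turned directions only, without ketamine mice 3 and 5, which leaves mouse 9 alone in its group.

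The first question was whether sub-chronic ketamine altered these genes in the PLc, and the data show a spread between mice that was larger than the difference between the groups for every member but Enpp2. Saline mouse 10 had the highest count of all 6 mice for 31 of the 34 genes, against 2274 of all 16127 genes tested. Saline mice 1 and 6 were near the bottom. For 30 of the 34 genes the 3 ketamine mice lay above both saline mouse 1 and saline mouse 6 and below saline mouse 10. Together the 34 genes took 0.253%, 0.218% and 1.35% of all counts with saline (mice 1, 6 and 10) and 0.635%, 0.427% and 0.481% with ketamine (mice 3, 5 and 9). In bulk tissue, fewer oligodendrocytes and less RNA in each of them cannot be told apart, nor can more of either.

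**Figure D1:**
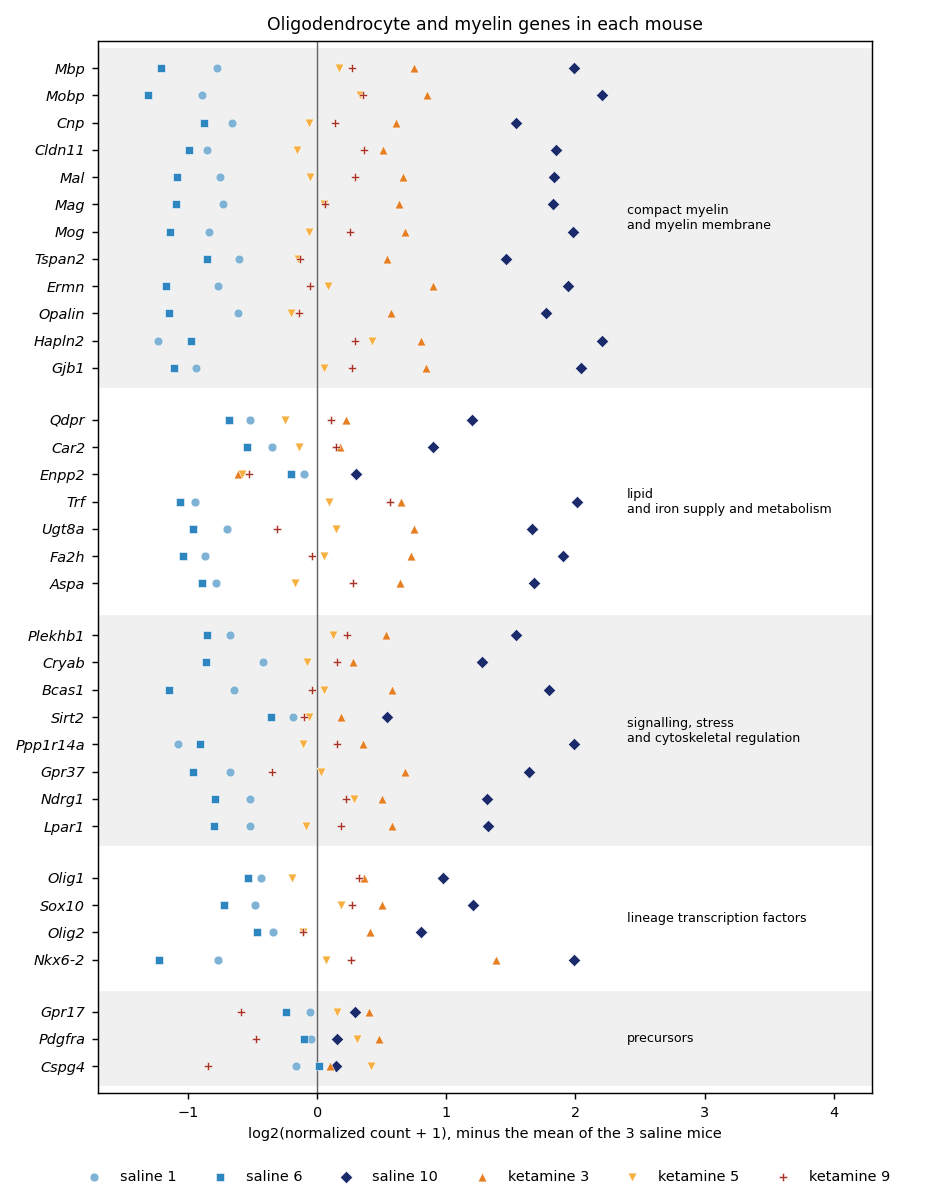
Each row is 1 of the 34 genes, grouped by role, and each point is 1 mouse. The x axis is log2(normalized count + 1) minus the mean of the 3 saline mice, so 0 is the saline mean. Saline mouse 10 is the rightmost point for 31 genes, and for 30 genes the 3 ketamine mice fall between it and the other saline mice. The 3 precursor genes at the bottom are the exceptions with Enpp2.

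Mbp, myelin basic protein, which holds the inner faces of the membrane together, was the most abundant of the 34 per kilobase of exon. Its normalized counts were 22353, 16581 and 152192 with saline (mice 1, 6 and 10) and 64574, 43111 and 46231 with ketamine (mice 3, 5 and 9). Values of other genes follow in this order of mice. Saline mouse 10 held more than the sum of the other saline mice several times over, and every ketamine mouse lay inside the saline range. The means were 63709 ± 76683 in saline and 51305 ± 11596 in ketamine (SD, n = 3 each). The log2 fold change of Mbp was 0.40 with a standard error of 0.77 (limma, adjusted p = 0.999), and the ratio of the 2 means pointed the other way, at 0.805.

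The log2 scale and the arithmetic means differed in sign for most of the genes. On the log2 scale 31 of 34 genes were above 0, whereas the ratio of arithmetic means was under 1 for 29, and 27 genes did both. The median log2 fold change of the 34 was 0.23, against -0.01 over all genes tested. edgeR and DESeq2, which compare mean counts, gave a median of -0.26 and -0.27 for the 34. No direction of change between the groups can be read from these medians.

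At an adjusted p under 0.05, limma called 0 of the 34 genes, beside 0 of all genes, a share of 0%. In the direction of higher expression, 0 members had an unadjusted p under 0.05, beside 3.44% of all genes. In the direction of lower expression 1 member had one, Enpp2, beside 2.37%. On recovered reads, edgeR called 0 members with 1 at an unadjusted p under 0.05, and DESeq2 called 0 members with 1 at an unadjusted p under 0.05. DESeq2 called 182 genes in all, or 1.13%, and gave no adjusted p for 4 members, Mbp, Mobp, Hapln2 and Trf. All ketamine mice lay above all saline mice for 0 of the 34 genes, against 5.69% of all genes. All lay below for 1, again Enpp2, against 4.66%.

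Among the other genes of compact myelin, Mobp, a basic protein of the major dense line, had 6804, 5102 and 58538 normalized counts with saline and 22776, 15914 and 16168 with ketamine. Saline mouse 10 was more than 2 times the highest ketamine mouse, and the lower saline mice were below every ketamine mouse. The log2 fold change of Mobp was 0.51 ± 0.85 (SE, limma, adjusted p = 0.999). Mog, a surface glycoprotein of the outermost lamella, followed the same order with 706, 575 and 5000 in saline and 2034, 1214 and 1513 in ketamine, and a log2 fold change of 0.29 ± 0.76. Mag, an adhesion molecule of the membrane next to the axon, had 2243, 1742 and 13159 in saline and 5772, 3858 and 3867 in ketamine. Again saline mouse 10 alone exceeded the ketamine mice. Cnp, an enzyme of the non-compacted cytoplasmic channels, had 4267, 3683 and 19651 in saline and 10302, 6476 and 7433 in ketamine. Cnp shares 154 exon bases with Dnajc7 on the other strand, and the strand setting of the counting is not given in the sources used here. Cldn11, the claudin of myelin tight junctions, had 1713, 1557 and 11215 in saline and 4427, 2783 and 3980 in ketamine. Hapln2, a link protein of the matrix at nodes of Ranvier, had the widest step, with 114, 136 and 1245 in saline and 469, 361 and 329 in ketamine.

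All 12 genes of compact myelin and the membrane had the same arrangement. Saline mouse 10 stood between 4.55 and 9.96 times above the mean of saline mice 1 and 6, with Hapln2 highest and Tspan2, a tetraspanin, lowest. The ketamine mean was between 1.80 and 3.09 times that same mean. The remaining genes of this group are Mal, a proteolipid of myelin rafts, the gap junction gene Gjb1, Opalin, which is a glycoprotein of mature oligodendrocytes, and the cytoskeletal gene Ermn.

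In the lipid and iron genes saline mouse 10 stood 1.37 to 8.10 times above the mean of the other saline mice. Trf, transferrin, which carries iron and is made by oligodendrocytes in brain, had 489, 453 and 3816 normalized counts with saline and 1486, 1008 and 1399 with ketamine. Its log2 fold change was 0.44 ± 0.77 (SE, limma, adjusted p = 0.999). The annotation holds a second Trf entry on the same strand that shares 2108 exon bases with it and is listed at 0, so its counts are less certain than those of the others. Qdpr, a reductase that regenerates tetrahydrobiopterin, had 3199, 2852 and 10526 in saline and 5346, 3856 and 4935 in ketamine. Car2, a carbonic anhydrase, had 3170, 2763 and 7498 in saline and 4570, 3661 and 4460 in ketamine. The 3 enzyme genes Ugt8a, Fa2h and Aspa, of which the first makes galactosylceramide, the second hydroxylates its fatty acids and the third releases acetate from N-acetylaspartate, stood 5.64, 7.25 and 5.76 times above the other saline mice in saline mouse 10.

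Enpp2 was the exception of this group and of the whole list. It encodes autotaxin, the secreted enzyme that makes lysophosphatidic acid, and is known from choroid plexus as well as from oligodendrocytes. Its normalized counts were 8605, 8027 and 11352 with saline (mice 1, 6 and 10) and 6039, 6168 and 6389 with ketamine (mice 3, 5 and 9). Every ketamine mouse lay below every saline mouse. The means were 9328 ± 1776 and 6199 ± 177 (SD, n = 3 each), and the log2 fold change was -0.57 with a standard error of 0.16. The unadjusted p of Enpp2 was 0.0089 and the adjusted p was 0.579 by limma, 0.587 by edgeR and 0.117 by DESeq2. An exact permutation test gave p = 0.1, below which 3 mice against 3 cannot go. Without saline mouse 10 the log2 fold change was -0.42 (limma, adjusted p = 0.350). None of the 6 choroid plexus markers that passed the filter had every ketamine mouse below every saline mouse. Their log2 fold changes were above 0 for 3 and below 0 for 3, and 3 were highest in saline mouse 10, as Enpp2 was. Ttr, transthyretin, the defining marker, had 2.87, 116 and 2421 with saline and 21.5, 11.3 and 118 with ketamine, and its part in the Enpp2 values was not tested.

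Among the signalling, stress and cytoskeletal genes, Bcas1, which marks oligodendrocytes that are beginning to myelinate, had 1781, 1256 and 9647 normalized counts in saline and 4148, 2880 and 2708 in ketamine. The ketamine values were all inside the saline range, and the log2 fold change was 0.19 ± 0.70 (SE, limma, adjusted p = 0.999). Ndrg1, a stress-regulated gene needed for the upkeep of myelin in nerve, had 1282, 1060 and 4579 in saline and 2611, 2241 and 2143 in ketamine, with a log2 fold change of 0.34 ± 0.51. In this group saline mouse 10 stood 1.75 to 7.93 times above the mean of the other saline mice, lowest for the deacetylase Sirt2 and highest for the phosphatase inhibitor Ppp1r14a. The chaperone Cryab, the orphan receptor Gpr37, the lysophosphatidic acid receptor Lpar1 and Plekhb1, a membrane protein with a pleckstrin homology domain, were between them. Sirt2 also had the smallest ketamine step of the group, at 1.21 times the mean of saline mice 1 and 6, against 2.21 times for Ppp1r14a. Sirt2 shares 42 exon bases with Nfkbib on the other strand.

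The 4 lineage transcription factors kept to this order too. Sox10, which drives myelin genes, had 590, 499 and 1901 normalized counts in saline and 1165, 938 and 993 in ketamine. Its log2 fold change was 0.32 ± 0.47 (SE, limma, adjusted p = 0.999). Nkx6-2, a homeodomain factor of maturing oligodendrocytes, had 102, 74.3 and 697 in saline and 457, 183 and 210 in ketamine, with a log2 fold change of 0.57 ± 0.82. Ketamine mouse 3 held more than 2 times the Nkx6-2 of the other ketamine mice. Nkx6-2 shares 245 exon bases with the better expressed Inpp5a on the other strand. Olig1 had 1942, 1812 and 5150 in saline and 3381, 2291 and 3286 in ketamine, and Olig2 had 521, 479 and 1154 in saline and 875, 611 and 613 in ketamine. Olig1 and Olig2 showed a smaller step in saline mouse 10, of 2.74 and 2.31 times, than Sox10 with 3.49 and Nkx6-2 with 7.89. The difference between these steps was not tested, since it rests on 1 mouse.

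The precursor genes did not share the pattern. Pdgfra, the receptor of the growth factor that keeps precursors dividing, had 1531, 1479 and 1765 normalized counts with saline (mice 1, 6 and 10) and 2216, 1961 and 1139 with ketamine (mice 3, 5 and 9). Cspg4, the NG2 proteoglycan of precursor membranes, had 510, 576 and 631 in saline and 611, 759 and 317 in ketamine. Gpr17, a receptor of precursors about to differentiate, had 1504, 1324 and 1920 in saline and 2067, 1735 and 1036 in ketamine, and shares 188 exon bases with Lims2 on the other strand. In all 3 genes ketamine mouse 9 was the lowest of the 6 mice and the groups overlapped. The log2 fold changes were 0.10 ± 0.25 for Pdgfra, -0.11 ± 0.31 for Cspg4 and -0.01 ± 0.27 for Gpr17 (SE, limma, adjusted p = 0.999 for each). Saline mouse 10 stood 1.16 to 1.36 times above the other saline mice for these genes. In ketamine mouse 9, the mean log2 level of 15 genes of axonal nodes and paranodes also stood 1.04 below the saline mean, and its part in the precursor values was not tested.

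The spread of each gene on the log2 scale was set against that of all genes. The median standard deviation within the saline group was 1.44 for the 34 genes and 0.19 for all genes tested, and for 27 of the 34 it was above the 95th percentile of all genes. In the ketamine group it was 0.34 for the 34 and 0.28 for all genes, and the median percentile of the 34 was 60.2, against 98.6 in saline. Saline mouse 10 was over 2 times both other saline mice for 29 of the 34 genes, against 4.38% of all genes. Ranked by the ratio of saline mouse 10 to the mean of saline mice 1 and 6, 7 of the 34 were among the first 100 genes and 27 among the first 500.

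Differences among the remaining mice were smaller and fell to the same mice for most genes. Saline mouse 1 was above saline mouse 6 for 31 of the 34 genes, by a median of 1.17 times. Ketamine mouse 3 was the highest ketamine mouse for 32 genes, and the highest ketamine mouse was a median of 1.56 times the lowest. Ketamine mouse 3 also had the highest count of Ppp1r1b, and the part of striatal tissue in this order was not tested.

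A comparison without saline mouse 10 asks how far the group difference rests on that library. It left saline mice 1 and 6, and all ketamine mice were above both for 30 of the 34 genes, against 15.1% of all genes. They were below both for 1, Enpp2, against 16.7%. The median log2 fold change of the 34 genes was then 1.01, against -0.02 over all genes. By limma, 28 members reached an unadjusted p under 0.05 in the direction of higher expression, against 6.01% of all genes, and 1 did so in the other, against 5.02%. limma still called 0 of them, with adjusted p-values of 0.158 or more. edgeR also called 0, with 29 at an unadjusted p under 0.05. DESeq2 called 22 of the 34 as higher in ketamine, against 2.33% of all genes, and 0 as lower, against 0.775%.

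Of the 22 genes that passed DESeq2 in this comparison, 10 were among the 12 of compact myelin, 4 among the 7 of lipid and iron supply, 6 among the 8 of signalling and 2 among the 4 transcription factors. The log2 fold changes by limma without saline mouse 10 were 1.39 ± 0.25 for Mbp, 1.61 ± 0.23 for Mobp, 1.61 ± 0.22 for Hapln2 and 1.44 ± 0.21 for Trf (SE). That of Nkx6-2 was 1.57 ± 0.42 and that of Sox10 was 0.92 ± 0.17. The 3 precursor genes lay between -0.04 and 0.18. Since mouse 10 was left out after its values had been seen, and 2 saline mice remain, the values describe these 5 libraries. Without ketamine mice 3 and 5, which held the striatal markers, the log2 fold change was recomputed for 20 named genes only. The values of Olig2, Pdgfra and Bcas1 turned below 0 with the 1 ketamine mouse that remained. Members outside these 20 were not examined for a turned direction.

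**Figure D2:**
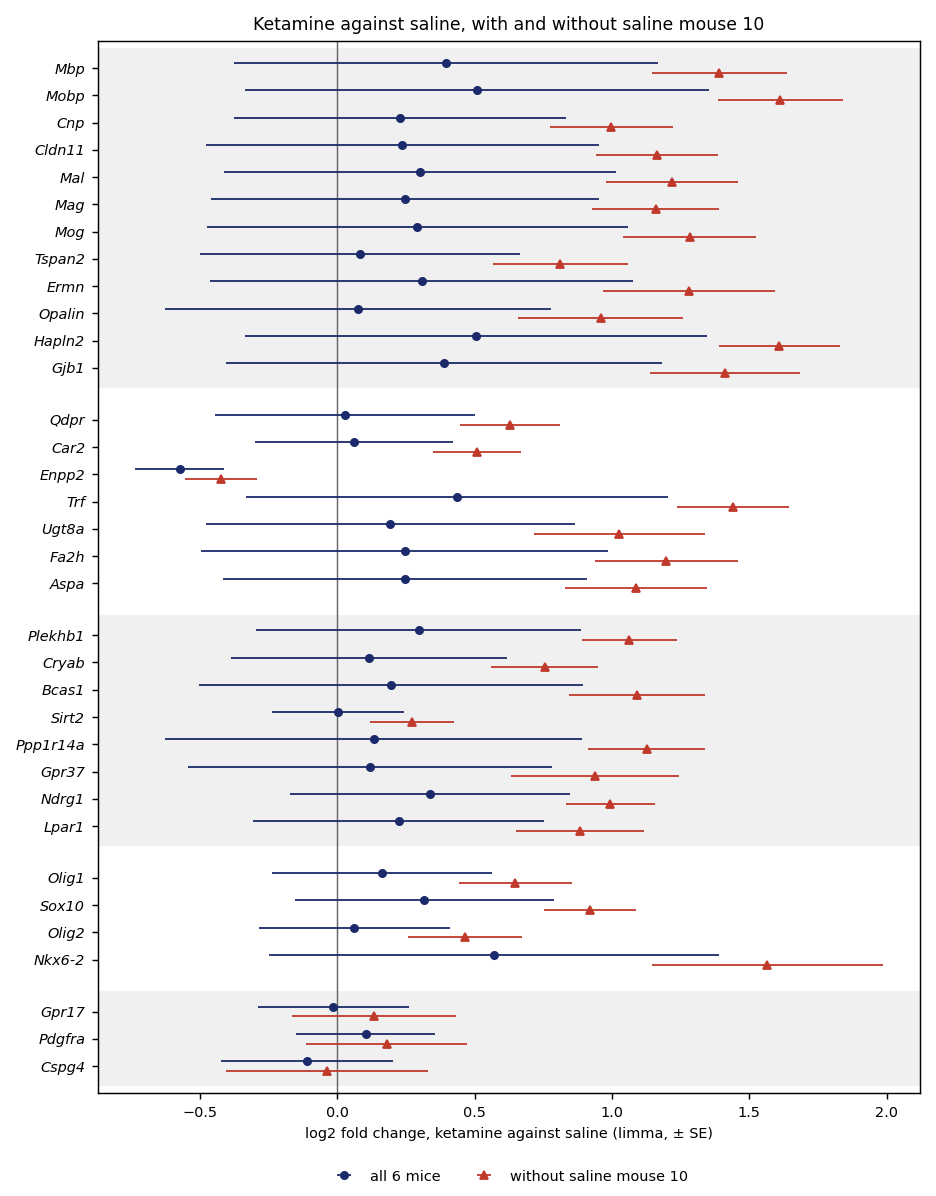
Rows are the 34 genes in the same order as in the plot of single mice, and the x axis is the log2 fold change of ketamine against saline by limma, with bars of 1 standard error. Circles use all 6 mice and triangles leave out saline mouse 10. With all mice the bars of every gene but Enpp2 reach 0 or cross it, and without saline mouse 10 the median moves from 0.23 to 1.01 while Enpp2 stays below 0.

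Oligodendrocyte genes outside the 34 were examined by stage. All 32 genes of a second list of mature oligodendrocyte genes passed the filter, and 31 of them were highest in saline mouse 10. limma called 0 of them and 0 had an unadjusted p under 0.05. Their median log2 fold change was 0.23 with all mice and 0.92 without saline mouse 10, where 23 had an unadjusted p under 0.05, all in the direction of higher expression, against 6.01% of all genes. In that comparison DESeq2 called 17 of the 32 as higher, against 2.33% of all genes, and limma and edgeR called 0. Klk6, a secreted protease of oligodendrocytes, had 14.4, 7.72 and 445 normalized counts with saline and 141, 97.8 and 115 with ketamine. Klk6 was thus 40.3 times higher in saline mouse 10 than the mean of the other saline mice. That ratio is imprecise, since its denominator rests on counts of 14.4 and 7.72. Sox8, a relative of Sox10, had 815, 910 and 1768 in saline and 1459, 1509 and 1171 in ketamine. Tubb4a, a tubulin of myelinating cells that neurons also use, had 20220, 18602 and 25332 in saline and 16996, 19417 and 18275 in ketamine.

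Of 11 genes of differentiating oligodendrocytes, 9 passed the filter and 5 were highest in saline mouse 10. limma called 0 and 0 had an unadjusted p under 0.05. Tmem163, a zinc transporter, had 285, 279 and 555 in saline and 603, 333 and 782 in ketamine. Bmp4, a secreted signal made by newly forming oligodendrocytes, had 70.9, 55.0 and 87.8 in saline and 93.0, 73.4 and 134 in ketamine. Rras2, a small GTPase, had 502, 473 and 567 in saline and 370, 411 and 561 in ketamine. All 3 overlapped between the groups. The median log2 fold change of the 9 genes was 0.19, and 0.63 without saline mouse 10. In that comparison 3 had an unadjusted p under 0.05 by limma, all in the direction of higher expression, against 6.01% of all genes. limma, edgeR and DESeq2 then called 0. Enpp6, Nkx2-2 and Tcf7l2, named after their values were seen, stood 5.89, 3.26 and 3.20 times above the mean of the other saline mice in saline mouse 10.

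Of 14 further precursor genes, all passed the filter and 1 was highest in saline mouse 10, against 2274 of all 16127 genes tested. limma called 0, but 4 had an unadjusted p under 0.05, all in the direction of higher expression, against 3.44% of all genes. The median log2 fold change of the 14 was 0.14. Without saline mouse 10, 5 had an unadjusted p under 0.05 by limma in the direction of higher expression, against 6.01% of all genes. In the direction of lower expression 1 did so, against 5.02%. DESeq2 then called 1 as higher, against 2.33% of all genes, and 1 as lower, against 0.775%. The lower one was Susd5, a membrane protein named after its values were seen, with 566, 494 and 248 in saline and 232, 330 and 254 in ketamine. Cacng4, an auxiliary subunit of AMPA receptors, had 1055, 938 and 1026 normalized counts with saline and 2022, 1352 and 1565 with ketamine. Every ketamine mouse lay above every saline mouse, and saline mouse 10 did not stand apart. Its log2 fold change was 0.69 ± 0.17 (SE, limma, unadjusted p = 0.0046, adjusted p = 0.441), and DESeq2 gave an adjusted p of 0.0499. Emid1, an extracellular protein, had 164, 176 and 124 in saline and 208, 348 and 431 in ketamine, with a log2 fold change of 1.04 ± 0.29 (SE, limma, adjusted p = 0.579). Lhfpl3, a membrane protein of the tetraspan type, had 113, 106 and 169 in saline and 359, 229 and 188 in ketamine, with a log2 fold change of 0.97 ± 0.30 (SE, limma, adjusted p = 0.643). Both were likewise free of overlap, and for Cacng4, Emid1 and Lhfpl3 the exact permutation p was 0.1. Of the 14 genes, 4 had every ketamine mouse above every saline mouse, against 5.69% of all genes. Olfactory bulb markers were also higher in all 3 ketamine mice and striatal markers in ketamine mice 3 and 5. Their part in these values was not tested.

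The 14 genes of sphingolipid synthesis, transfer and breakdown, which many cell types use, had a median log2 fold change of -0.04 and 0 with an unadjusted p under 0.05 with all mice. Smpd1, Arsa and Asah1, which are lysosomal enzymes of sphingolipid breakdown, spanned 2699 to 3439, 903 to 1045 and 1580 to 1716 normalized counts over the 6 mice. Another 4 of the 14, named after their values were seen, stood more than 2 times above both other saline mice in saline mouse 10. They were Gltp, a glycolipid transfer protein, at 3.20 times the mean of the other saline mice, the ceramide synthase Cers2 at 2.90 times, and the fatty acid elongases Elovl7 at 2.79 and Elovl1 at 2.53 times. Without saline mouse 10, 3 of the 14 had an unadjusted p under 0.05 by limma, all in the direction of higher expression, against 6.01% of all genes. DESeq2 then called 1 as higher, against 2.33% of all genes, while limma and edgeR called 0. The 15 genes of axonal nodes and paranodes, which neurons express under myelin, had a median of -0.32, with 0 at an unadjusted p under 0.05. Scn8a, the sodium channel of mature nodes, had 13681, 12035 and 10022 in saline and 8377, 11756 and 5561 in ketamine. Cntnap1, which anchors the paranode, had 8558, 7868 and 6582 in saline and 6620, 7658 and 3456 in ketamine. Lgi3 had 3052, 2808 and 5307 in saline and 3061, 2832 and 2280 in ketamine. With all 6 mice, limma, edgeR and DESeq2 called 0 genes of either list, and without saline mouse 10 they called 0 of the node and paranode genes.

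Markers of other cells and regions were read beside these results. The 12 compact myelin genes had a mean log2 level, set against that of the saline mice, of -0.81, -1.08 and 1.89 with saline (mice 1, 6 and 10) and 0.70, 0.04 and 0.16 with ketamine (mice 3, 5 and 9). For 13 astrocyte markers it ran from -0.23 to 0.37 over the 6 mice, with saline mouse 10 highest. Gfap, the filament protein of white matter and reactive astrocytes, had 2209, 1996 and 10462 in saline and 4293, 3685 and 6395 in ketamine, whereas Aqp4, the water channel of astrocyte end feet, had at most 5709, also in saline mouse 10. For 13 microglia markers the range was -0.15 to 0.23, and for 12 endothelial markers it was -0.15 to 0.12. The 9 cortical excitatory neuron markers had 0.19, 0.12 and -0.31 in saline and -1.26, -0.31 and -0.81 in ketamine. Slc17a7, their glutamate transporter, stood at 49417, 48207 and 32973 in saline and 22152, 40369 and 32985 in ketamine. Striatal markers, 17 in all, stood at 3.78 in ketamine mouse 3 and 2.72 in ketamine mouse 5, whereas the other mice lay from -0.14 to 0.21. The 7 olfactory bulb markers were at 3.22, 2.50 and 5.65 in the ketamine mice and at most at 0.26 in a saline mouse. The 6 choroid plexus markers that passed the filter had -1.56, -0.55 and 2.11 in saline and 1.06, -0.0041 and 1.09 in ketamine. These 6 genes, ranked after their values were seen, did not move together. Clic6 peaked in ketamine mouse 3, with 562 normalized counts, and Aqp1 and Kcnj13 in ketamine mouse 9, with 403 and 59.8. Ttr, Kl and Otx2 peaked in saline mouse 10. Saline mouse 10, highest in myelin genes, thus also held midbrain genes, and ketamine mouse 3, the highest ketamine mouse, held the most striatal RNA. The part of these regions in the myelin values was not tested.

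**Figure D3:**
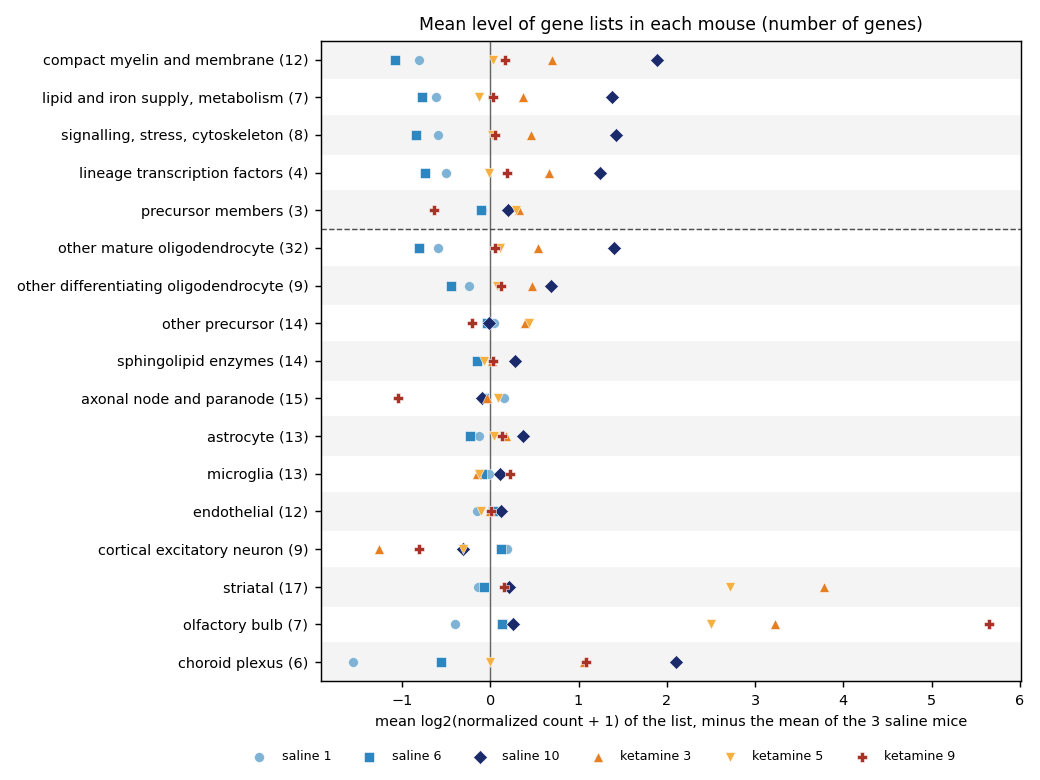
Rows are gene lists with the number of genes tested in brackets, and each point is 1 mouse. The x axis is the mean log2(normalized count + 1) of the list minus the mean of the 3 saline mice. Above the dashed line are the 5 groups of the 34 genes and below it other lists. Saline mouse 10 reaches 1.89 for compact myelin and 2.11 for choroid plexus, whereas ketamine mice 3 and 5 reach 3.78 and 2.72 for striatal markers.

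Levels were compared between genes per kilobase of exon in the annotation. Mbp had a mean of 6844 normalized counts per kilobase over the 6 mice, Mobp 3214, Qdpr 2674, Car2 2434, Cnp 2373 and Cldn11 2321. At the other end were Aspa with 93.7 and Cspg4 with 70.5. The range over the 6 mice was 1973 to 18112 for Mbp and 785 to 9010 for Mobp, with saline mouse 10 at the top of both. These ranges overlapped, but Mbp had more than Mobp per kilobase in each of the 6 mice. Other neighbours in this order were not compared mouse by mouse.

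**Figure D4:**
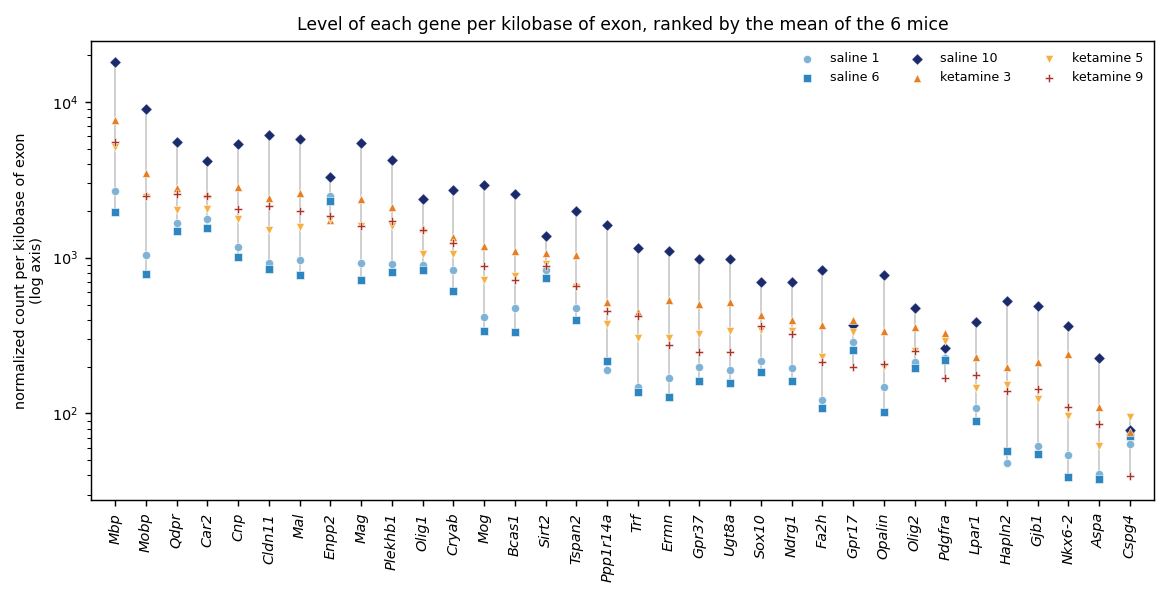
The 34 genes are ordered from left to right by their mean normalized count per kilobase of exon. The y axis is that count on a log scale, each point is 1 mouse and the grey line spans the 6 mice. Mbp is highest with a mean of 6844 and Cspg4 lowest with 70.5. The spans of neighbouring genes overlap, although Mbp lies above Mobp in each mouse.

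Positions of the genes the results turn on are those of GENCODE M1 on mm9. Mbp lies on chromosome 18 from 82644538 to 82755029 on the plus strand, and Mobp on chromosome 9 from 120058860 to 120090602 on the plus strand. Mog lies on chromosome 17 from 37147691 to 37160343 on the minus strand, and Enpp2 on chromosome 15 from 54670453 to 54751701 on the minus strand. Sox10 lies on chromosome 15 from 78985343 to 78994920, also on the minus strand. Their Ensembl identifiers in the deposited table are ENSMUSG00000041607 for Mbp, ENSMUSG00000032517 for Mobp, ENSMUSG00000076439 for Mog, ENSMUSG00000022425 for Enpp2 and ENSMUSG00000033006 for Sox10.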

How the data were processed

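RNA from the PLc of 3 saline and 3 ketamine mice was analysed, with groups from the sample labels. The authors sequenced 100 bp paired-end reads, aligned them to mm9 with TopHat 2.0.11 and counted them per gene with HTSeq. The deposited signal is a count per gene scaled by the authors, by library size factors of the DESeq2 kind. The annotation and strand setting are not given in the sources used here. Whole reads were recovered for 100% of values.

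Log2(normalized count + 1) was tested by limma 3.58.1 (R 4.3.3) under a variance trend, over 16127 genes with a mean of at least 10, two-sided and with Benjamini-Hochberg adjustment over all of them. A fold change on this scale understates that of low genes. As alternatives, edgeR 4.0.16 called 0 genes and DESeq2 1.42.0 called 182 on recovered reads. Pseudocounts of 0.1 and 5, other filters (none, 100) and scalings, no trend and each mouse left out were also tried. Leaving out ketamine mice 3 and 5, and the count tests without saline mouse 10, were added after seeing the data. Single genes were compared with an exact permutation test. List levels are means of log2 values relative to the saline mean.

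The members and lists were chosen with earlier results of these data known. Values in every mouse are given for the 8 members with the smallest p, the 6 highest per kilobase, the transcription factors, the precursor genes, Bcas1 and the main myelin proteins. From other oligodendrocyte, sphingolipid and node lists the 3 smallest p were named. Exon lengths are unions of GENCODE M1 exons. Promoters are RefSeq windows on GRCm38.p6.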

Additional observations from a re-analysis of the deposited data

How the results depend on the processing

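The 34 genes gave 0 calls with limma in the main comparison, with pseudocounts of 0.1 and 5, with no filter or one of 100, with other scalings, without the trend and with each mouse left out, and edgeR and DESeq2 also called 0 with all mice. Over the 20 genes whose log2 fold change was recomputed, the direction kept in these limma settings with all mice, except that with TMM size factors Gpr17 stood at 0.0015. TMM moved the median of all genes to 0.0005. Read-based tests turned the direction of 11 genes. With edgeR the values were -0.030 for Nkx6-2, -0.36 for Mobp, -0.36 for Hapln2, -0.28 for Trf, -0.31 for Mbp, -0.39 for Mog, -0.34 for Mag, -0.18 for Cnp, -0.025 for Olig2, 0.041 for Gpr17 and -0.38 for Bcas1, with a median of -0.26 over the 34. With DESeq2 they were, in the same order, -0.039, -0.36, -0.37, -0.29, -0.31, -0.40, -0.35, -0.19, -0.033, 0.033 and -0.38, with a median of -0.27. DESeq2 called 182 genes in all.

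With each mouse left out in turn, limma called 0 to 1 of all genes and 491 to 1780 had an unadjusted p under 0.05, most without saline mouse 10. Of the 34 genes, 1 to 29 had one, 1 to 31 did not overlap between groups, and the median ran from -0.21 to 1.01, in each case highest without saline mouse 10. The log2 fold changes ran from -0.041 to 1.57 for Nkx6-2, -0.044 to 0.92 for Sox10, -0.061 to 0.99 for Ndrg1, -0.15 to 1.61 for Mobp, -0.11 to 1.61 for Hapln2, -0.10 to 1.44 for Trf, -0.21 to 1.39 for Mbp, -0.28 to 1.28 for Mog, -0.30 to 1.16 for Mag, -0.21 to 0.998 for Cnp, -0.10 to 0.65 for Olig1, -0.17 to 0.46 for Olig2, -0.22 to 0.28 for Gpr17, -0.086 to 0.39 for Pdgfra, -0.37 to 0.26 for Cspg4 and -0.38 to 1.09 for Bcas1. Enpp2 stayed between -0.67 and -0.42, Cacng4 between 0.53 and 0.82, Emid1 between 0.81 and 1.34 and Lhfpl3 between 0.71 and 1.18.

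Without saline mouse 10, edgeR found 1807 genes and 29 members at an unadjusted p under 0.05, with Gpr17 at 0.20 and Cspg4 at 0.056. DESeq2 found 1905 and 29, called 501 genes and 22 members, and gave 0.20 and 0.062 for the same 2 genes. Without ketamine mice 3 and 5, 3385 genes and 2 members had an unadjusted p under 0.05, 4 members did not overlap, and Olig2 stood at -0.11, Pdgfra at -0.48 and Bcas1 at -0.040. That fit has 1 ketamine mouse, which is assumed to vary like the saline mice. The cause of these changes was not tested. The count of genes without overlap does not depend on the test, pseudocount or trend, so it was not recomputed for them. No paired analysis was possible because the saline and ketamine mice share no number.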

Other observations

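Genes of dividing cells and of neuroblasts, which are immature neurons, were read as further lists. Of 8 genes of dividing cells, 7 passed the filter, and their mean log2 level, set against that of the saline mice, was -0.37, -0.60 and 0.96 with saline (mice 1, 6 and 10) and 1.21, 0.99 and 0.50 with ketamine (mice 3, 5 and 9). The groups overlapped in this mean, limma called 0 of the 7, and 1 had an unadjusted p under 0.05. DESeq2 and edgeR also called 0. The 6 neuroblast genes had means of -0.33, -0.29 and 0.62 in saline and 1.65, 1.49 and 2.29 in ketamine. Of these, 5 had an unadjusted p under 0.05 in the direction of higher expression by limma, against 3.44% of all genes, with 0 called. DESeq2 called 4, where it called 1.13% of all genes. Olfactory bulb markers stood at 3.22, 2.50 and 5.65 in the same ketamine mice, also highest in mouse 9, and their part in the neuroblast values was not tested. The 10 general neuron markers ran from -0.34 to 0.15 over the 6 mice.

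Besides Slc6a3, saline mouse 10 held other genes of midbrain dopamine neurons, chosen after their values were seen. Slc18a2, the vesicular monoamine transporter, had 4.79, 7.72 and 812 normalized counts in saline mice and at most 87.1 in a ketamine mouse. En1, a midbrain transcription factor, had 82.4 in saline mouse 10 and at most 0.96 in the other mice. Th, the rate-limiting enzyme of dopamine synthesis, had 39.3, 32.8 and 611 in saline and 311, 196 and 1687 in ketamine, and is also made by olfactory bulb interneurons.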
